A study of Homo sapiens with 2 samples.

Results

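IFIT1, IFIT2 and IFIT3 are the members described here of the IFIT family, the interferon-induced proteins with tetratricopeptide repeats. They were taken by gene symbol from the probe sets of the deposited table, which gave 3 genes of 14884 named ones, each read by 1 probe set. The family was chosen by its log2 difference between these same arrays, among the largest in the table, so those differences are given as a description. The study used HT1080, an established human fibrosarcoma cell line. One group received an shRNA (short hairpin RNA, which lowers the messenger RNA it matches) against cMyc, and the other a non-targeting control shRNA. Both were harvested 48 hours after infection with virus carrying the shRNA, per the labels' protocols, while the series' design text speaks of transfection. Each group is 1 sample on 1 Affymetrix Human Gene 2.0 ST array, which summarises several short probes into 1 log2 value per probe set. With 1 array a group no replicate error exists and nothing was tested, and the shRNA, the culture, the infection and the array cannot be told apart.

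IFIT proteins are among the best known products of the interferon response. IFIT1 binds RNA whose cap lacks 2′-O methylation, the mark by which cells tag their own messenger RNA, and keeps it from being translated. IFIT2 and IFIT3 bind to each other and to IFIT1, and IFIT3 is known to stabilise IFIT1 and to strengthen its RNA binding. IFIT5, a relative, binds RNA that carries a triphosphate at its start. The genes are switched on through the interferon-stimulated response element, a short promoter sequence bound by the interferon-activated complex ISGF3 or by IRF proteins directly.

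The promoters are shown so that the sequences of the family members can be compared. Their part in the differences between the arrays was not tested. The RefSeq promoter table for GRCh38.p14 held IFIT1, IFIT3, IFIT5 and IFIT1B, but not IFIT2. Each stretch is the 250 bases before a transcript start, on the + strand of chromosome 10, read 5′ to 3′. Capitals mark the core of the response element, searched on both strands: GAAA, any 2 bases (NN), then GAAA. Every match lay on the opposite strand and therefore reads as TTTC, NN, TTTC. The stretches are chr10:89392373-89392622 for IFIT1, chr10:89327747-89327996 for the more upstream transcript start of IFIT3, chr10:89414318-89414567 for IFIT5 and chr10:89377806-89378055 for IFIT1B.
IFIT1: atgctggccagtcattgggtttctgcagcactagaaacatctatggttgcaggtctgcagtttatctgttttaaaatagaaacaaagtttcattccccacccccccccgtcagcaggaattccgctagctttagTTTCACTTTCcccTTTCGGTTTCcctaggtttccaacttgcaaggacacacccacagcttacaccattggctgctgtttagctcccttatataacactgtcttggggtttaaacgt
IFIT3: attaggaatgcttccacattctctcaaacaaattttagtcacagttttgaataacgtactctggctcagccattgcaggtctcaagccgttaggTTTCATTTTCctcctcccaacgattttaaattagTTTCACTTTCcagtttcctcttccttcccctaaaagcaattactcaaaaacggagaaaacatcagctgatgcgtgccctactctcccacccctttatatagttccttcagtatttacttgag
IFIT5: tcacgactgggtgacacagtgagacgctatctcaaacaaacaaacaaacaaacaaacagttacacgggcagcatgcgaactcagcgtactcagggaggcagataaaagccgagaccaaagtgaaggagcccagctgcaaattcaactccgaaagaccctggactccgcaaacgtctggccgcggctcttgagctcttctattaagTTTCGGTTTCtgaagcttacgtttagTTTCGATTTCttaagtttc
IFIT1B: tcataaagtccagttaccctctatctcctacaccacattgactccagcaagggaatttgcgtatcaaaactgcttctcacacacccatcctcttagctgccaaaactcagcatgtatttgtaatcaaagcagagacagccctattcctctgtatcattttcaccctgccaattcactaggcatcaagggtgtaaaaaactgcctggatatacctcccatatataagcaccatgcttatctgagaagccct

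IFIT1 held 2 matches, which began 116 and 103 bases before its start. IFIT3 also held 2 before its upstream start, beginning 156 and 122 bases away, and another 2 before its downstream start, at 94 and 51 bases. IFIT5 held 2 complete matches closer to its start, at 45 and 19 bases, and another that spans the start, whose first 4 bases end the printed stretch in lower case. IFIT1B held none in the window of 300 bases searched, which says only that these letters are not there. The form TTTCACTTTC occurred in IFIT1 and before both starts of IFIT3, and, on either strand, in 71 of all 35116 promoter windows (0.202%). The form TTTCGGTTTC occurred in IFIT1 and IFIT5, and in 38 windows (0.108%). Any form of the core was found in 1255 windows (3.57%). A match is a stretch of letters and was not tested for binding.

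**Figure D1:**
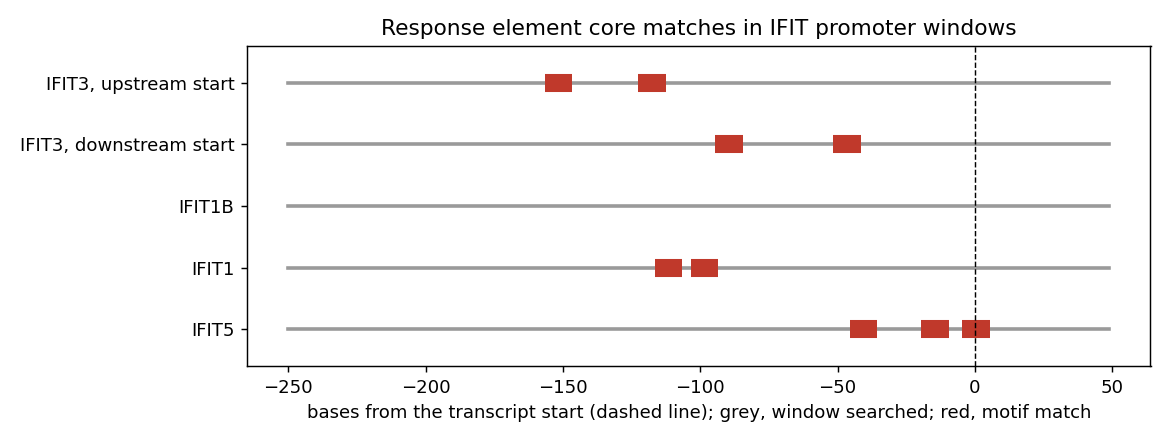
Positions of the response element core (red) in 5 promoter windows of 4 IFIT genes, in bases from the transcript start, with 250 bases before and 50 after it (grey lines). IFIT1, both starts of IFIT3 and IFIT5 hold matches, those of IFIT5 nearest to the start, and IFIT1B holds none.

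IFIT1 had the largest difference of any named gene. Its probe set (16707196) read 9.68 on the cMyc shRNA array and 2.78 on the control shRNA array, on the log2 scale. The log2 difference was 6.90, or 119.7-fold higher with cMyc shRNA. The array reads RNA of the whole culture, so more cells with IFIT1 and more IFIT1 RNA per cell cannot be told apart. The control value lay 0.91 below the median of the control array (3.68), a range in which no detection call is available to separate signal from background. With the control value raised to that array median, the difference was 5.999, or 63.9-fold, so the direction stands and the size of the fold is uncertain.

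IFIT2, which forms complexes with IFIT1 and IFIT3, was also among the largest differences. It read 8.73 on the cMyc shRNA array and 3.63 on the control shRNA array (probe set 16707180). The log2 difference was 5.09, or 34.1-fold higher. IFIH1, at 5.07, lay closer to IFIT2 than the technical SD of 0.48 for a gap between 2 genes, described below. No order between them is therefore read. The control value of IFIT2 was 0.05 below the array median, so the same floor changed the fold only to 33.0-fold.

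IFIT3, the partner that stabilises IFIT1, had the smallest difference of the 3. It read 9.12 on the cMyc shRNA array and 4.67 on the control shRNA array (probe set 16707184). The log2 difference was 4.45, or 21.8-fold higher. Of the 3 genes it was the one with a control value above the array median, by 0.99, and its fold did not depend on the floor. All 3 passed the level filter, a mean of both arrays at or above the median of all probe sets (3.70), but IFIT1 and IFIT2 passed it only through the cMyc shRNA array. Of the 4676 named genes whose control value lay below the control array's median, as theirs did, 52 (1.11%) were at least 2-fold higher. Of the 10258 genes past the filter, 206 (2.01%) reached 2-fold higher.

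**Figure D2:**
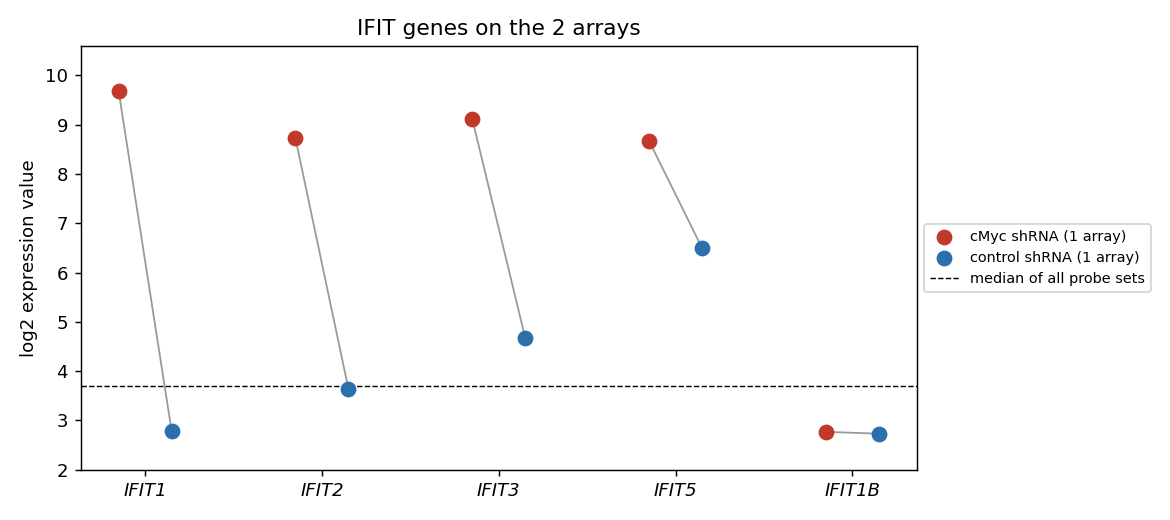
Log2 expression values of the 5 IFIT genes on the cMyc shRNA array (red, left of each pair) and the control shRNA array (blue, right), 1 array each and therefore without error bars. IFIT1, IFIT2, IFIT3 and IFIT5 are higher with cMyc shRNA, and IFIT1B stays below the dashed median of all probe sets on both.

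Among the members, IFIT1 exceeded IFIT2 by 1.81 and IFIT3 by 2.46 on the log2 scale, while IFIT2 exceeded IFIT3 by 0.65. The only repeat measurement in the table is between probe sets of 1 gene: over 416 genes with at least 2 probe sets past the level filter, the SD of a single log2 difference was 0.34, which gives 0.48 for the gap between 2 genes. This technical SD holds no variation between cultures or infections. With the control floor the log2 differences were 5.999, 5.04 and 4.45 for IFIT1, IFIT2 and IFIT3. The excess of IFIT1 then shrank to 0.95 over IFIT2 and 1.55 over IFIT3, so its size rests on a control value that has no detection call.

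The other IFIT genes, which the choice of members left out, differed less. IFIT5 read 8.67 on the cMyc shRNA array and 6.50 on the control shRNA array, a log2 difference of 2.18, or 4.52-fold higher. Its control value lay 2.81 above the array median on the log2 scale. IFIT1B read 2.77 on the cMyc shRNA array and 2.73 on the control shRNA array, both below the array medians. Its difference was 0.04, smaller than the technical SD. Of these 2 genes 1 was at least 2-fold higher, where 227 of 14884 named genes (1.53%) were, and 0 were at least 2-fold lower, where 2.83% of named genes were. At least 16-fold higher were 8 named genes (0.0537%), and IFIT1, IFIT2 and IFIT3, chosen for such a difference, were 3 of them.

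**Figure D3:**
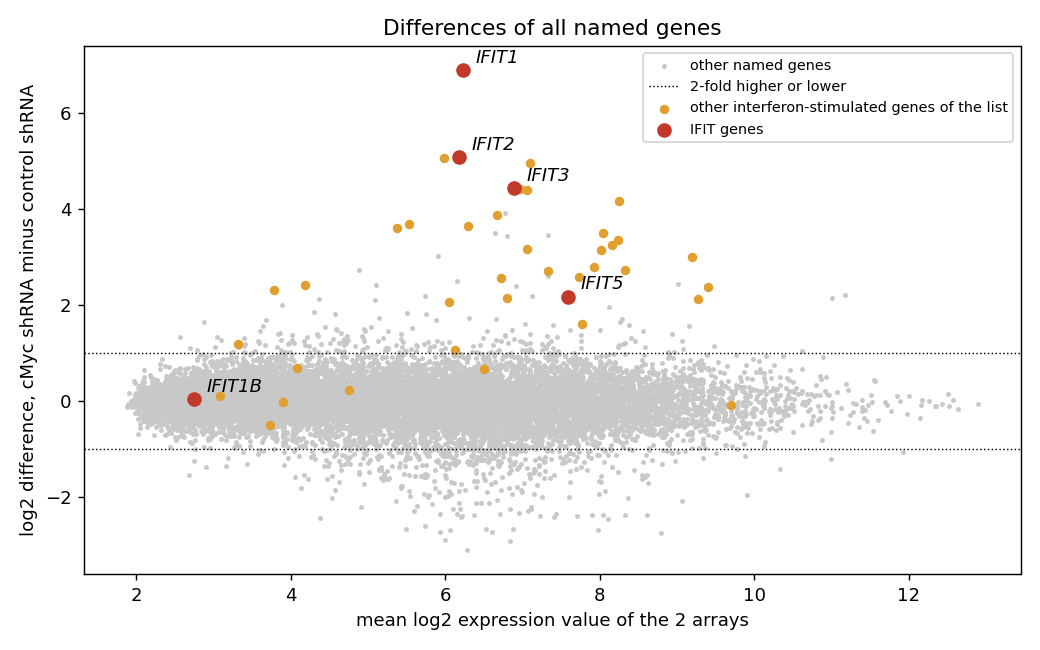
Log2 difference (cMyc shRNA minus control shRNA) of 14884 named genes against the mean log2 value of both arrays, with dotted lines at 2-fold. IFIT1 lies at the top at 6.90, IFIT2 and IFIT3 lie among the highest interferon-stimulated genes (orange), IFIT5 lies at 2.18, and IFIT1B lies within the bulk of the genes (grey).

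The neighbours of the IFIT genes on the chromosome are given for position. RefSeq places IFIT2, IFIT3, the pseudogene IFIT6P, IFIT1B, IFIT1 and IFIT5 next to each other on chromosome 10. IFIT1B, which lies between IFIT3 and IFIT1, differed by only 0.04. On one side lies CH25H, cholesterol 25-hydroxylase, itself described as interferon-induced. It read 2.76 on the cMyc shRNA array and 2.91 on the control shRNA array, both below the array medians. Further out, STAMBPL1, a deubiquitinating enzyme, differed by -0.12. On the other side PANK1, a pantothenate kinase of coenzyme A synthesis, read 5.14 on the cMyc shRNA array and 5.34 on the control shRNA array, a difference of -0.20. KIF20B, a kinesin of cell division, was 3.82-fold lower, at 6.19 on the cMyc shRNA array and 8.12 on the control shRNA array. Over all 10 other named genes shown around the cluster, 9 lay within 2-fold, and differences ran from -1.94 to 0.45. Most named genes also lay within 2-fold (1.53% were past it higher and 2.83% lower). Among the 9, ANKRD22, FAS-AS1, MIR4679-1, CH25H and LINC00865 did not pass the level filter. Values that low cannot be told from background. LIPA, FAS, ACTA2 and SLC16A12 had no named probe set and were not analysed here.

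**Figure D4:**
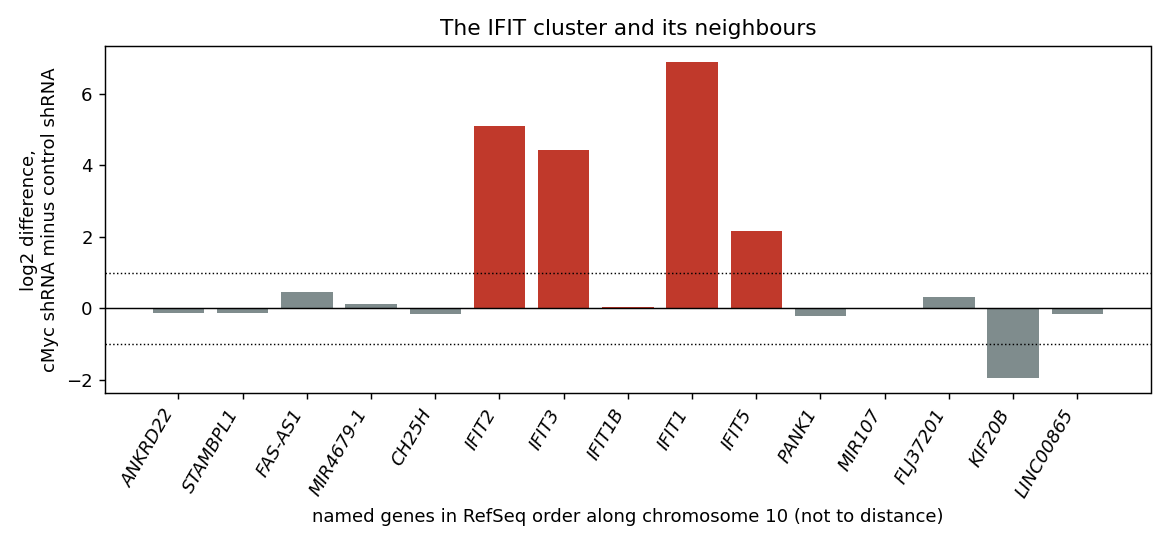
Log2 difference (cMyc shRNA minus control shRNA) of the named genes around the IFIT cluster, in RefSeq order along chromosome 10 and not to distance, with IFIT genes in red and dotted lines at 2-fold. IFIT2, IFIT3, IFIT1 and IFIT5 are past 2-fold higher, IFIT1B between them is at 0.04, and KIF20B is the neighbour past 2-fold lower.

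Likeness in pattern was measured as the distance between 2 genes' pairs of log2 values, 1 per array, over all named genes. This distance mixes the brightness of a probe set with its difference and rests on 2 arrays. IFIT3 had close neighbours: IFI44 at 0.11, USP18, the protease that removes ISG15 and damps interferon signalling, at 0.23, the immediate early factor EGR1 at 0.40, the antiviral enzyme RSAD2 at 0.47 and the helicase DDX60 at 0.51. IFIT2 had 1 close neighbour, IFIH1, a sensor of double-stranded RNA, at 0.28, followed by XAF1 at 1.03 and IFIT3 at 1.11. The genes nearest to IFIT1 were IFIT2 at 1.28 and IFIH1 at 1.34, distances that rest on its low control value of 2.78.

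The steps around the IFIT genes were described from lists chosen with earlier results of these data known. In the interferon-stimulated list 40 of 55 genes were named and 33 of those were at least 2-fold higher, against the 1.53% of all named genes, with 0 at least 2-fold lower. Without IFIT1, IFIT2 and IFIT3 it was 30 of 37, with a median log2 difference of 2.59, where the median of all named genes was 0.00. Restricted to the 31 genes with a control value at or above the level filter, which leaves out IFIT1 and IFIT2, 25 were at least 2-fold higher, against 1.72% of all genes so restricted. LAMP3 had the lowest difference of the list, at -0.50. The list of other interferon-induced proteins that act on RNA overlaps the interferon-stimulated list. It had 10 of 12 named members at least 2-fold higher, against 1.53% of all named genes. Among the 10 were IFIH1 (5.07 on the log2 scale), DDX60 (3.87), OASL (3.17) and the sensor RIGI (3.01). So was the kinase EIF2AK2 (2.12), which halts translation on double-stranded RNA. All of these were already counted in the interferon-stimulated list. DDX60L (3.43), the paralog of DDX60, was among the 10 but is not in that list. SLFN11 was lowest at -0.69.

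CMTR1 makes the 2′-O methyl mark on the cap that IFIT1 reads. It read 8.18 on the cMyc shRNA array and 6.60 on the control shRNA array, 2.98-fold higher. CMTR2, which methylates the next nucleotide, differed by 0.05 and the capping enzyme RNGTT by 0.09.

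Of the factors that act on the response element, IRF9, the DNA-binding subunit of ISGF3, read 8.01 with cMyc shRNA and 5.44 with control shRNA, 5.94-fold higher. It was the 1 of 9 named STAT and IRF genes at least 2-fold higher, against 1.53% of all named genes. IRF1 differed by 0.70, IRF4 by 0.41 with both values below the array medians, and IRF7 by -0.02. Of the receptors and kinases upstream, 0 of 5 named genes reached 2-fold, which is near the shares over all named genes (1.53% higher and 2.83% lower): JAK2 differed by 0.82, the interferon gamma receptor chains IFNGR1 and IFNGR2 by 0.72 and 0.30, JAK1 by 0.30 and TYK2 by -0.09. None of the 21 interferon genes of the list, nor IFNAR1 or IFNAR2, had a named probe set here, so the ligand step was not analysed here. USP18 was 21.0-fold higher, while SOCS1 differed by 0.09 and SOCS3 by -0.42. The list for the route from RNA sensors to IRF3 is broader than that route. It also holds the DNA-sensing genes CGAS and STING1, and TLR7, TLR8 and IRF7. Of its 16 named genes 4 were at least 2-fold higher, against the same 1.53%: IFIH1, TLR3 (3.51), RIGI and DHX58 (2.07, named after its value was seen). CGAS, TLR7 and TLR8 did not pass the level filter. The adaptors MAVS and TICAM1 differed by -0.28 and -0.78.

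**Figure D5:**
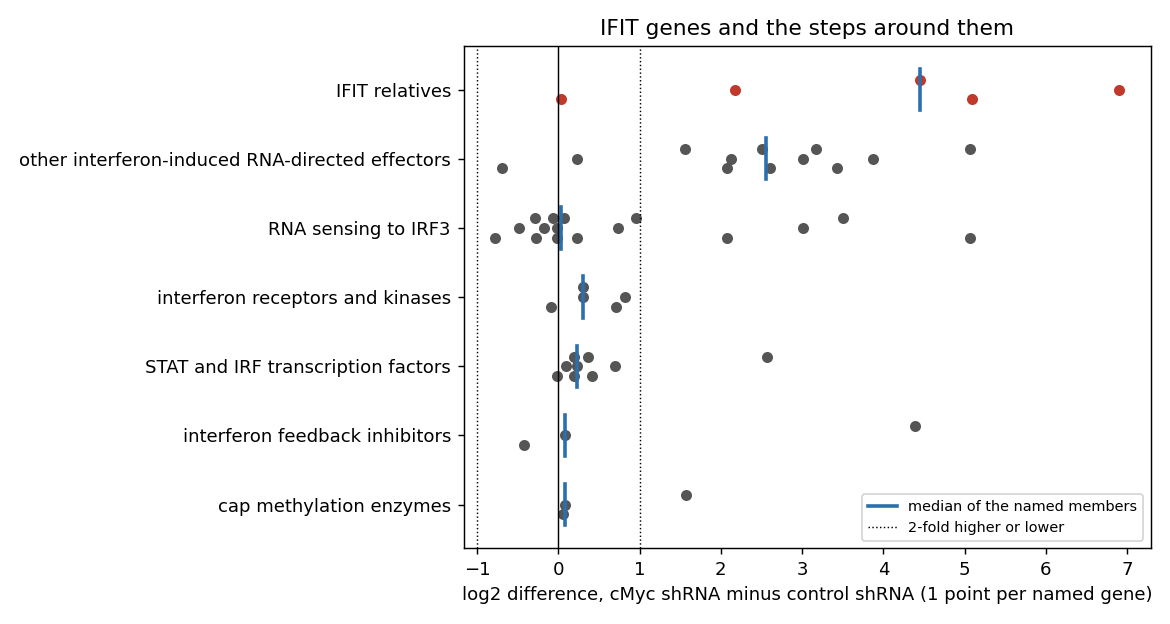
Log2 difference (cMyc shRNA minus control shRNA) of each named gene in the IFIT family (red) and in 6 lists of surrounding steps (grey), with list medians (blue) and dotted lines at 2-fold. IFIH1, which is in both the effector and the sensor list, lies near IFIT2 and above IFIT3 on this axis. The other members of these lists lie below IFIT3. IRF9 and USP18 are the points past 2-fold in the STAT and IRF list and the feedback list.

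MYC, which the shRNA targets, had a log2 value of 6.16 on the cMyc shRNA array and 7.09 on the control shRNA array, 1.91-fold lower. Over all probe sets the median was 3.73 on the cMyc shRNA array and 3.68 on the control shRNA array. Of 13 mesenchymal markers 9 were named, and 0 differed 2-fold on the probe set that stood for the gene. That is near the shares over all named genes (1.53% higher and 2.83% lower). Their levels were uneven. FN1 was highest, at 12.6 on the cMyc shRNA array and 12.4 on the control shRNA array. S100A4 was lowest, at 3.39 on the cMyc shRNA array and 3.06 on the control shRNA array, both below the array medians. TWIST1 was also low, at 4.28 with cMyc shRNA and 4.31 with control shRNA. VIM, an intermediate filament, differed by -0.59 on that probe set and by -1.02 and -0.95 on its other 2. Collagen I and PDGFRB had no named probe set. Of 10 haematopoietic markers 3 were named, of which CD68 read 11.3 with cMyc shRNA and 10.4 with control shRNA, and CD4 and CD14 lay between 3.22 and 3.78 on both arrays. Their part in the IFIT values was not tested.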

How the data were processed

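The deposited table holds log2 expression values of 53617 probe sets on 2 arrays. The authors made them with Affymetrix Expression Console, per the submitters' processing notes; version, normalization and background method: not given in the sources used here. Its log base was inferred from the range of 1.41 to 13.9. No detection calls or scanner intensities were used, so a low value cannot be told from background. The precision is limited by the 1 array per group. GEO's platform annotation named 16098 probe sets with 1 symbol and 0 with several, and 37519 stayed unnamed. The Entrez identifiers of all 16098 matched RefSeq (GRCh38.p14), which updated 0 symbols.

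Differences are cMyc shRNA minus control shRNA. A gene with several probe sets is represented by its brightest on average. The members and lists were chosen with earlier results of these data known. Genes named are the members, their relatives and neighbours, MYC, up to 3 highest and the 1 lowest of each list, fixed pathway steps, and the 5 nearest patterns. A planned comparison of protein sequences was not run. Lists of eIF3 subunits and interferon ligands had 0 named genes. Epithelial markers (5 of 6 named) had a median of -0.46. Calculations used Python 3.11.15 with pandas 2.3.3, numpy 2.4.6, statsmodels 0.14.6 (loess) and matplotlib 3.10.9, and the script was tested on simulated data.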

Additional observations from a re-analysis of the deposited data

How the results depend on the processing

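Median centring, quantile normalization and loess left IFIT1 between 6.86 and 6.93, IFIT2 between 5.05 and 5.11 and IFIT3 between 4.40 and 4.47 on the log2 scale. Their ranks stayed 1, 2 and 5 in the order of genes past the level filter. IFIH1 (5.07) lay closer to IFIT2 than the technical SD of 0.48 for a gap between 2 genes. So did IFI44 (4.41) and USP18 (4.39) to IFIT3. Ranks 2 and 5 are therefore not read as an order among these genes. Raising low control values to the control array's median gave 5.999 for IFIT1, which lowers the difference by construction. Of 10258 genes past the level filter, 206 were 2-fold or more higher and 410 as much lower. The size rule moved these by construction to 900 and 1224 at 1.5-fold and to 47 and 49 at 4-fold. A filter at the 75th percentile, which keeps fewer genes, left 126 higher. The filter on the control array alone was chosen after seeing the data. The interferon-stimulated count was between 25 and 34 and its median between 2.72 and 3.08 under all alternatives run. No paired analysis was possible because each group has 1 sample. A low value cannot be told from background, which limits the fold of IFIT1.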

Other observations

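Genes that share the response element core with the IFIT genes can be counted over the whole table. Of 418 named genes with a match in a promoter window, 36 (8.61%) were at least 2-fold higher with cMyc shRNA, whereas 123 of 10331 genes without a match (1.19%) were. Of all 10749 named genes with a promoter window, 418 held a match (3.89%). Among the 40 of them at least 4-fold higher, 23 held a match (57.5%). Among the 332 at least 2-fold lower, 7 did (2.11%), which is near the share of all named genes. In the interferon-stimulated list 29 of 44 genes with a window held a match, against 1195 of all 27305 genes (4.38%). The median log2 difference was 0.07 over the genes with the core and -0.00104 over those without it. IFIT1 and IFIT3, chosen for their difference, and IFIT5 hold matches and are among the 36, the 23 and the 29. The counts are therefore not independent of the choice of the family. They describe 2 arrays, genes are not replicates, and no test was run.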
